A study of Mus musculus with 10 samples.

Results

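The POU class 3 genes Pou3f1, Pou3f2, Pou3f3 and Pou3f4 were followed through 5 lists of Dlx2-bound regions in mouse brain. Dlx2, a homeodomain protein that directs GABAergic neuron development in the forebrain, was mapped by chromatin immunoprecipitation and sequencing (ChIP-seq) with an antibody against Dlx2. The members were chosen by name with earlier results of these data known. A region belonged to a member when its summit, the position of highest signal, lay in the gene body or within 50 kb of it. This rule took 50 of the 25667 summits, at 4 of the 21900 protein-coding genes of the annotation.

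At embryonic day 16 (E16) 3 tissues were sampled: basal ganglia, cortex and olfactory bulb. The bulb and the cortex were sampled again at postnatal day 3 (P3). All were tissue samples immunoprecipitated for Dlx2, and neither strain, genotype nor the number or pooling of animals is given in the sources used here. Each tissue and age had 1 library, so values are described without a p-value, and no difference between tissues or ages could be set against the spread between animals. The 5 matching input samples and the control immunoprecipitations with rabbit IgG named in the protocol were not analysed here. Peak lists record binding and not expression, so the labelled tissues could not be checked against marker genes.

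The class 3 members of the POU family are transcription factors that bind DNA with a POU-specific domain joined to a POU homeodomain, and they recognise octamer-like sites. Their genes are short and intronless and are expressed in the developing nervous system, often with SOX proteins as partners. Pou3f1 (Oct6) is known for its role in Schwann cell myelination. Pou3f2 (Brn2) and Pou3f3 (Brn1) act together in the production and migration of upper-layer cortical neurons, and Pou3f4 (Brn4) is known from inner ear development and X-linked deafness.

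Pou3f1 and Pou3f2 lie far apart on the same chromosome, and the others on chromosomes of their own. In GRCm38.p6, the RefSeq form of the build mm10 used by the files, Pou3f3 spans chr1:42695768-42700210, Pou3f2 chr4:22482095-22488366, Pou3f1 chr4:124657646-124660655 and Pou3f4 chrX:110814379-110819108. Their bodies measure 4443, 6272, 3010 and 4730 bp in that order. The annotation at hand gives gene bodies and no exons, and the strand came from a promoter table that held Pou3f2 (minus), Pou3f3 (plus) and Pou3f4 (plus).

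Stretches of DNA upstream of 3 start sites that Dlx2 summits touched are printed here, because they show what lay under the regions described next. Each was taken from RefSeq (GRCm38.p6), is 250 bases long, reads 5′ to 3′ on the strand of its gene, and ends at the base before the RefSeq start. In those of Pou3f3 (chr1:42695518-42695767, plus strand) and Pou3f4 (chrX:110814129-110814378, plus strand), capitals mark CCAAT and TAATT on either strand. In that of Gm46091, a long noncoding RNA gene overlapping Pou3f3 (chr1:42684288-42684537, plus strand), capitals mark 23 bases around the summits of 2 lists.
Pou3f3: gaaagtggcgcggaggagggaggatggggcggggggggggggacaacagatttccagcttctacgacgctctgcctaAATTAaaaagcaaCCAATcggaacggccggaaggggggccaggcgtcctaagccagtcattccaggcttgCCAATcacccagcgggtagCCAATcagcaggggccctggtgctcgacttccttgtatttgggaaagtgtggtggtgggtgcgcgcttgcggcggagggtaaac
Pou3f4: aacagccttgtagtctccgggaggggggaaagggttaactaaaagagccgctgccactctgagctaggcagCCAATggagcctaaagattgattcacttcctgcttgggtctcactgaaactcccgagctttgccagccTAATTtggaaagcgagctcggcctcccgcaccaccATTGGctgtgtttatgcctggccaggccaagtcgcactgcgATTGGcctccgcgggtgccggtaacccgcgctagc
Gm46091: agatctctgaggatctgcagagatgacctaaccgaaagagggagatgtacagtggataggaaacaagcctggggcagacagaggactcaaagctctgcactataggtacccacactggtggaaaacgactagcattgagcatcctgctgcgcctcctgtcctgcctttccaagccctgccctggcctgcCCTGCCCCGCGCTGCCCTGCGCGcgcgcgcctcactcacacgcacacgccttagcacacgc

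The stretch of Pou3f3 held 3 copies of CCAAT and 1 of TAATT, and so did that of Pou3f4. CCAAT is the core of the site bound by the factor NF-Y, and TAATT is a core that many homeodomain proteins, Dlx proteins among them, bind. Motifs were searched on both strands in the window from 250 bases before to 50 after the start. All 3 copies of CCAAT in each of these windows lay in the printed part. At least 3 copies of CCAAT occurred in 3.37% of the 32851 promoter windows of the table, at least 1 copy in 37.4% and at least 1 copy of TAATT in 27.0%. CCAAT and TAATT were chosen after the sequences were seen. The longer homeodomain sites TAATTA and CAATTA, each of which contains TAATT on at least one strand, were in 5.29% and 8% of all windows. The octamer ATGCAAAT was in 1.74% of them. None of these 3 longer sites was in the windows of Pou3f2, Pou3f3 or Pou3f4, which says only that these letters are not there. The window of Pou3f2 had 2 copies of CCAAT and no TAATT. The 3 windows held 24, 18 and 15 CG pairs in the order Pou3f2, Pou3f3 and Pou3f4, against a median of 7 over all windows, and 20%, 29.7% and 34.6% of all windows held as many or more.

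Dlx2 summits lay near all 4 genes in the E16 basal ganglia, near 3 in the E16 cortex, near 2 in the E16 olfactory bulb and near none in either P3 list. The basal ganglia list held 27 of the 50 summits, the E16 cortex list 21 and the E16 bulb list 2. These summits are what the rule selected, so the counts are a description. Of all protein-coding genes, 42.4% had a summit by the same rule in the E16 basal ganglia, 28.7% in the E16 cortex and 6.62% in the E16 bulb. The shares at P3 were 3.98% in the bulb and 12.4% in the cortex. Among the 7939 genes with a body of at most 10 kb, like the members, the E16 shares were 33.8% for basal ganglia, 27.2% for cortex and 3.17% for bulb, and the P3 shares 8.5% for cortex and 2.32% for bulb. A count of 0 among 4 genes is near what such shares give, and the lists differ in length from 734 regions (P3 bulb) to 14795 (E16 basal ganglia). The E16 cortex list has 6333 regions, the P3 cortex list 2139 and the E16 bulb list 1666. With the depth of sequencing unknown, absence from a list means that no region passed the calling threshold there, not that Dlx2 was absent. The region names of 4 lists carry a mark for removed duplicate reads, and those of the P3 cortex list do not. This difference and age cannot be told apart in the cortex. Region names also followed one pattern for E16 basal ganglia and E16 cortex, another in the E16 bulb and P3 cortex lists and a further one in the P3 bulb list, and this grouping cannot be told apart from tissue and age.

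**Figure D1:**
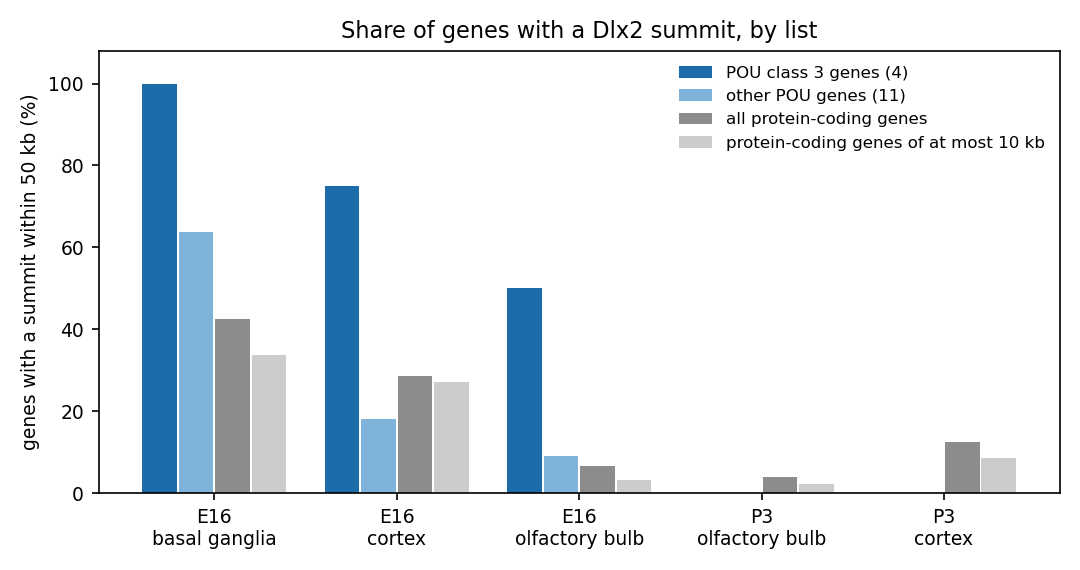
Bars give the percentage of genes with at least 1 Dlx2 summit in the gene body or within 50 kb of it (y axis, %), for each of the 5 lists (x axis) and for 4 sets of genes; an empty place is a share of 0. The POU class 3 genes go from 4 of 4 in the E16 basal ganglia to 0 of 4 in both P3 lists, where the share of all protein-coding genes is 3.98% (bulb) and 12.4% (cortex).

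Pou3f3 held the strongest summits, and in the E16 cortex most of them by number. It had 11 summits in the E16 basal ganglia, 17 in the E16 cortex and 1 in the E16 bulb. Pou3f2 had 10 in the E16 basal ganglia and 3 in the E16 cortex. In the basal ganglia the order of these 2 genes by number turned within 10 kb of the gene (7 at Pou3f3 and 10 at Pou3f2) and without regions wider than 1 kb (3 and 7). Pou3f1 had 3, 1 and 1 in the E16 basal ganglia, cortex and bulb, and Pou3f4 had 3 in the E16 basal ganglia alone. The fold enrichment, the authors' ratio of signal over local background at the summit, was highest at Pou3f3 in each of the E16 lists. In the basal ganglia the strongest summit reached 55.7 at Pou3f3, 17.1 at Pou3f2, 8.60 at Pou3f1 and 4.69 at Pou3f4. In the E16 cortex it reached 63.2, 18.4 and 7.39 at Pou3f3, Pou3f2 and Pou3f1. With 1 library per tissue, no pair of neighbours in this order can be said to differ beyond the spread between animals. Within their lists, these summits stood at percentile 100, 98.4, 88.2 and 53.3 of fold enrichment in the basal ganglia and at 99.97, 97.1 and 80.4 in the cortex. In the bulb the summits at Pou3f3 (4.43) and Pou3f1 (4.30) stood at percentile 26.8 and 24.0, below the list's median of 5.25.

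**Figure D2:**
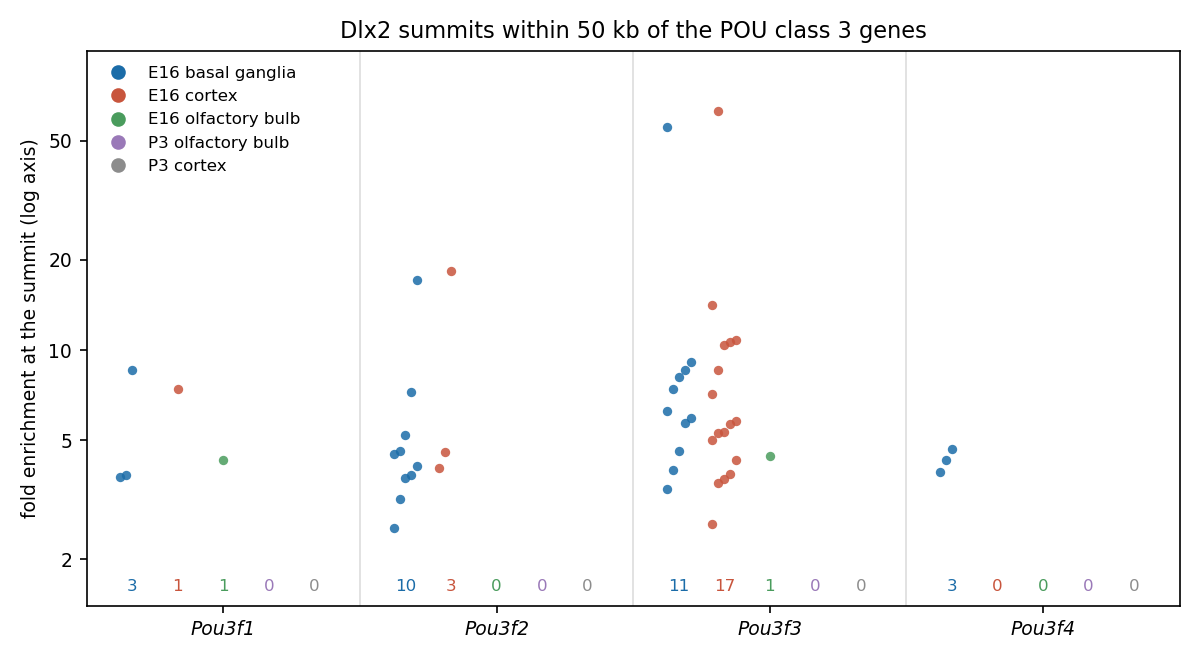
Each point is 1 summit of a list, placed by its gene and list (x axis) and its fold enrichment (y axis, log scale), and the number under each column of points counts the summits. The highest points are those of Pou3f3 in the E16 basal ganglia (55.7) and the E16 cortex (63.2), while both P3 columns are empty at all 4 genes.

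Set beside all protein-coding genes, Pou3f3 ranked higher by the strength and the extent of its regions than by their number. No gene had a higher fold enrichment by this rule in the basal ganglia, and 12 had one in the E16 cortex. The strongest region of Pou3f3 ranked 1 of 14795 and 3 of 6333 in these lists, so some of those 12 genes shared a summit. Its summed region width of 32.0 kb in the basal ganglia was exceeded at 8 of the 21900 genes, and that of 27.2 kb in the cortex at 17. For the genes with a summit, this width had a median of 1242 bp (basal ganglia) and 1620 bp (cortex). By number of summits, 224 genes had more than Pou3f3 in the basal ganglia and 45 in the cortex. Long genes catch more summits, and among the 7939 protein-coding genes of at most 10 kb, 43 had more in the basal ganglia and 1, Gins2, in the cortex. Gins2 is a short gene of the DNA replication machinery and had 23 summits there. Pou3f2, with 10 summits in the basal ganglia, was exceeded by 297 genes, and with 3 in the cortex by 1819. Genes close to each other share summits in such counts.

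At Pou3f3 the regions formed an almost continuous block in the E16 basal ganglia and a more broken one in the E16 cortex. In the basal ganglia, 11 regions from chr1:42678372-42714501 covered 88.4% of a span of 36.1 kb, with gaps of 79 to 1211 bp. In the E16 cortex, the 14 regions within 20 kb of the gene covered 71.5% of a span of 35.0 kb, with gaps of 56 to 5985 bp. With the 3 farther cortex regions, all 17 covered 41.0% of a span of 66.3 kb, with a widest gap of 26972 bp. The bases shared by the 2 lists came to 23.9 kb, which is 74.8% of what the basal ganglia regions covered at this gene and 87.8% of what the cortex regions covered. Of the basal ganglia regions 8 of 11 were wider than 1 kb, as were 7 of the 17 cortex regions, where the whole lists have 13.8% and 25.2%. The bulb region was narrower, as nearly all of its list was, with 0.36% wider than 1 kb. The chromatin was sheared to fragments of at most about 1 kb per the labels, so such regions are wider than a fragment.

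The peak of the block lay inside the gene. The summit of the basal ganglia region of 12493 bp was at 42697949, which is 2181 bases after the start, and that of the cortex region of 5669 bp was at 42698012, 2244 bases after it. These summits were 63 bp apart. The strongest region exceeded the next one at the gene 6.09-fold in the basal ganglia (9.14, the summit near one start of Gm46091) and 4.47-fold in the cortex (14.1). That second cortex region, of 7643 bp, had its summit 5.16 kb past the gene's end, and in the basal ganglia most of the same stretch belonged to the strongest region.

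In the E16 bulb the summit at Pou3f3 lay elsewhere, 202 bases before the start of the gene. Its region of 370 bp (chr1:42695408-42695777, fold enrichment 4.43, −log10 q 7.07) covered the printed stretch upstream of Pou3f3. The basal ganglia and cortex regions began at 42695517 and 42695602 and overlapped it by 261 and 176 bp, with summits 2383 and 2446 bp away. The 3 lists thus met at the start of Pou3f3 in 1 merged region of 15117 bp, the only one at these genes that joined 3 lists. Promoter windows of the table overlapped a region in 3.19% of cases in the E16 basal ganglia, 1.13% in the E16 cortex and 0.277% in the E16 bulb.

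Upstream of Pou3f3, the closest match between the lists was at one start of Gm46091. The basal ganglia summit at 42684489 (fold enrichment 9.14, region of 3535 bp) and the cortex summit at 42684487 (10.4, region of 1273 bp) were 2 bp apart. They lay 49 and 51 bases before that start. The printed stretch upstream of this start held neither CCAAT nor TAATT. Gm46091 has another start nearer Pou3f3, whose promoter window (chr1:42694658-42694957) was overlapped by no region and held 1 CCAAT. A further pair of summits 8758 and 8813 bp before Pou3f3 lay 55 bp apart, with fold enrichments of 8.15 and 10.8. Downstream, summits 9796 and 9863 bp past the gene were 67 bp apart (5.73 and 8.58) and lay in Pantr2. Pantr1 and Pantr2 are long noncoding RNA genes beside Pou3f3.

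Every summit of the Pou3f3 window, the strongest ones inside the gene included, lay within the body of a noncoding neighbour, so these regions cannot be assigned to Pou3f3 alone. Within Pantr1, on the side of the lower coordinates, were 7 basal ganglia and 10 cortex summits, and within Pantr2 were 2 and 5. Gm46091, which spans 60.3 kb across the gene, held 9, 9 and 1 in the basal ganglia, cortex and bulb. At the far end of Pantr1 the cortex had 3 regions and the basal ganglia none. Their summits lay 0.327, 1.52 and 3.87 kb inside the lower boundary of Pantr1, with fold enrichments of 5.30, 3.85 and 5.78. Conversely, 4 basal ganglia regions between 1.72 and 5.80 kb before Pou3f3 had no counterpart in the cortex. Their fold enrichments were 3.44, 3.97, 4.60 and 7.39. Such unshared regions were the smaller part here: 7 of 11 basal ganglia and 14 of 17 cortex regions overlapped the other list. Over the whole lists 26.4% and 61.5% did. An overlap of 1 bp sufficed, and wide regions meet others more easily. With 8 of the 11 basal ganglia regions here wider than 1 kb, these shares are not like for like.

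**Figure D3:**
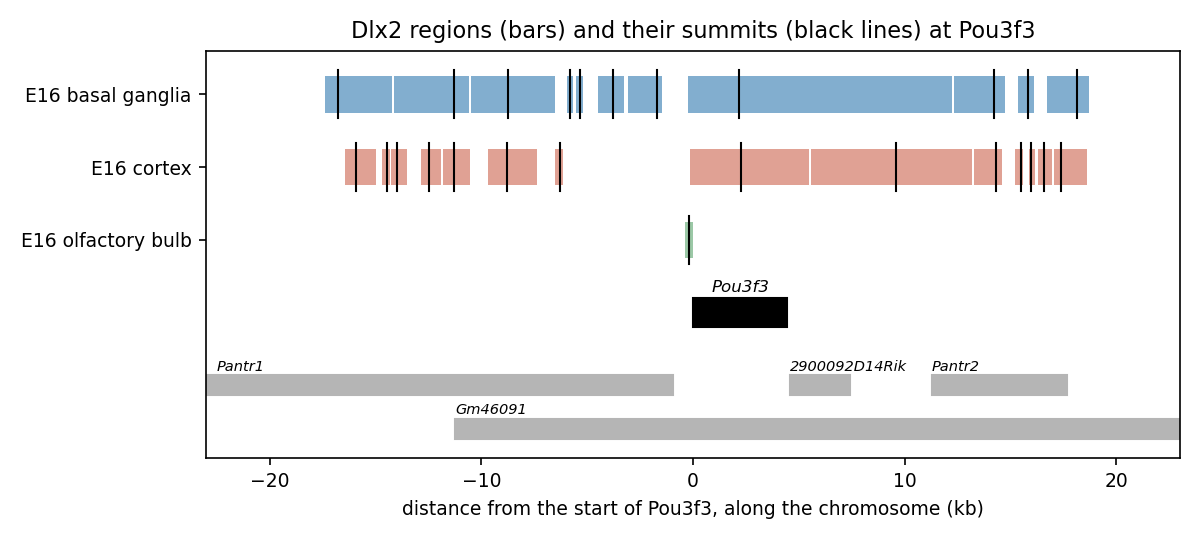
Bars show the Dlx2 regions of the 3 E16 lists along the chromosome around Pou3f3 (x axis, kb from its start), black lines their summits, the black box the gene and grey boxes its noncoding neighbours. The 3 cortex regions with summits 43.7 to 47.2 kb before the gene lie outside the drawn range. The basal ganglia row is almost continuous, the cortex row has a gap of 5985 bp before the gene, and both have their strongest summit in the gene, while the single bulb region sits at the start.

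Pou3f2 carried its strongest Dlx2 region beyond the gene's downstream end, in both lists. The gene is on the minus strand, and the basal ganglia region of 4219 bp had its summit 3051 bp past the end (fold enrichment 17.1, −log10 q 90.3). The cortex region of 4060 bp had its summit 1909 bp past it (18.4, −log10 q 74.7). A smaller basal ganglia region 4893 bp past the end (4.49) also lay under that wide cortex region. The regions shared 3174 bp, although their summits were 1142 bp apart. Within the gene the basal ganglia list had 3 summits (4.60, 3.83 and 2.54) and the cortex list 1 (4.05), at different places.

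On the upstream side of Pou3f2 the basal ganglia list held a row of 5 weaker summits between 574 and 9339 bp from the start. Their fold enrichments were 5.21, 3.73, 4.11, 7.25 and 3.18 from the nearest to the farthest. The nearest region began 120 bp beyond the promoter window, and no list had a region in that window. The cortex list shared only the farthest of the 5, with summits 21 bp apart (3.18 in the basal ganglia and 4.58 in the cortex). The one 3176 bp from the start lay in Gm30731, a long noncoding RNA gene, and the other 4 were in no annotated neighbour. In all, 7 of the 10 merged regions at Pou3f2 were in the basal ganglia list alone, 1 in the cortex list alone and 2 in both. Counted as regions, 3 of 10 in the basal ganglia and 2 of 3 in the cortex overlapped the other list. This is near the 26.4% and 61.5% of the whole lists, so these counts do not set Pou3f2 apart.

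Pou3f1 had a site 11.9 kb from the gene that the basal ganglia shared with the bulb. The basal ganglia summit (124672565, fold enrichment 8.60, −log10 q 25.7) and the bulb summit (124672505, 4.30, −log10 q 5.09) were 60 bp apart, and the cortex list had no region there. It lay between the noncoding gene Gm38545 and Utp11, which encodes a protein of the ribosome assembly machinery. Inside Pou3f1 the basal ganglia had regions of 1227 and 406 bp with fold enrichments of 3.78 and 3.82. The cortex region in the gene, of 1071 bp, lay within the wider of these and had 7.39, with summits 317 bp apart. The strongest site at this gene was therefore outside it in the basal ganglia and inside it in the cortex.

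Pou3f4 was listed in the basal ganglia alone, with 3 regions of 300 to 676 bp. The summit at 110814213 lay 166 bases before the start (fold enrichment 4.29, −log10 q 6.68), and its region covered the printed stretch upstream of Pou3f4. A second summit was in the gene body (3.91, −log10 q 5.06) and another 16.8 kb past the gene's end (4.69, −log10 q 7.85). These regions were weak within their list: 1 of the 3 was above its median fold enrichment of 4.55. No other annotated gene lay within 50 kb of Pou3f4. The X chromosome held 1.20% of basal ganglia and 1.17% of E16 cortex regions.

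**Figure D4:**
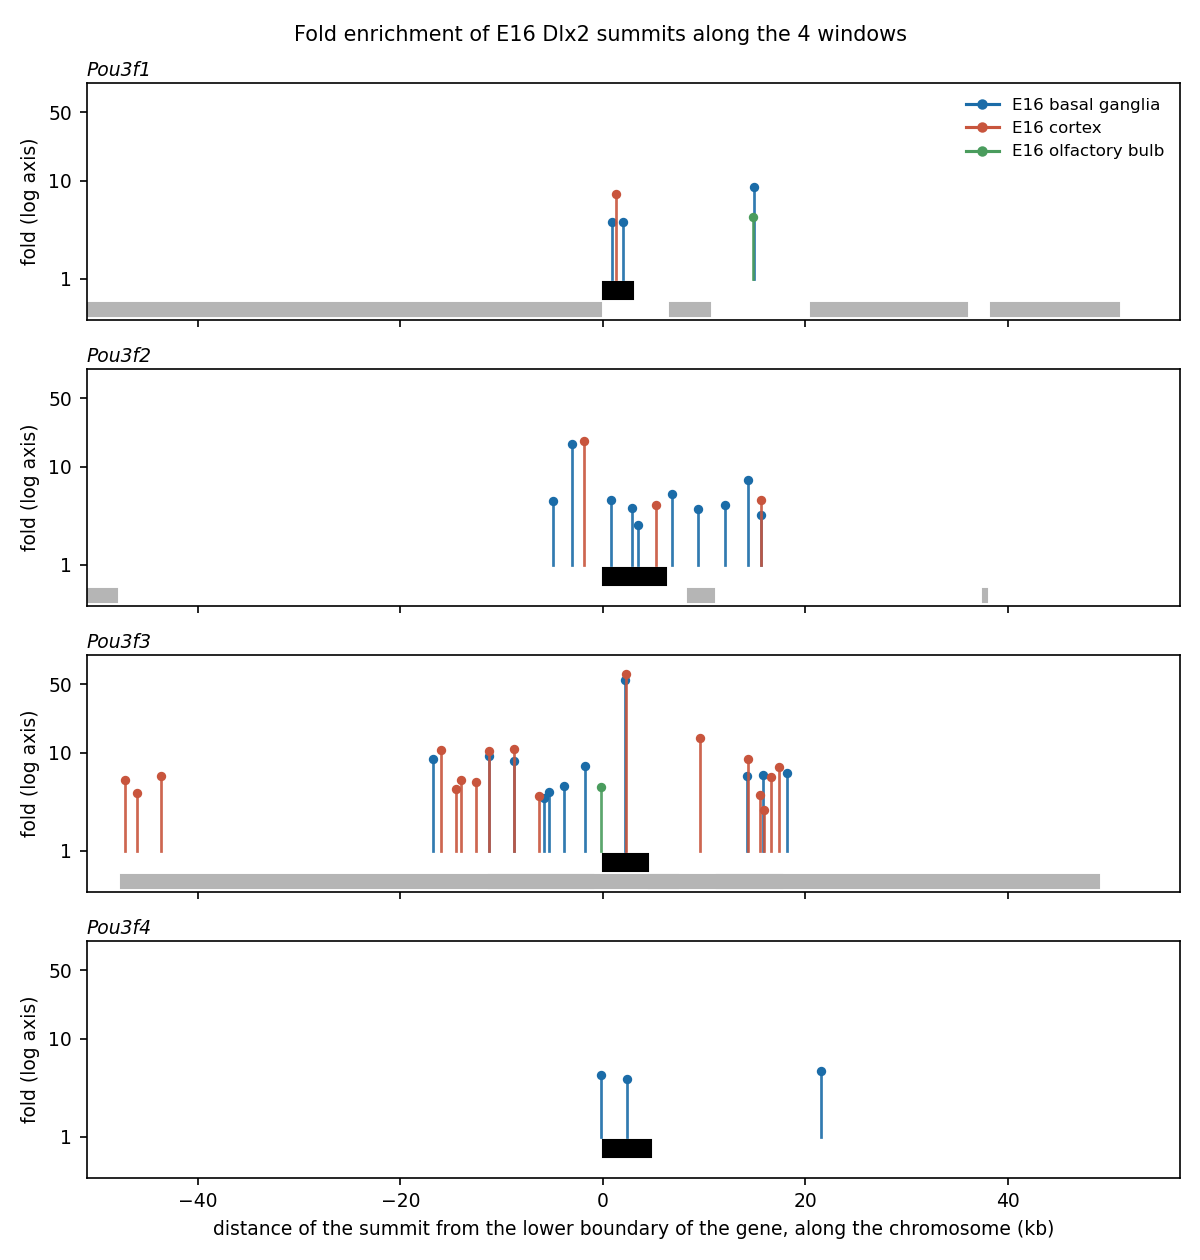
Each line rises from 1 to the fold enrichment of an E16 summit (y axis, log scale) at its distance from the lower boundary of the gene along the chromosome (x axis, kb), with the member as a black box and other annotated genes in grey. Summits crowd within about 20 kb of the genes, and the strongest one is inside Pou3f3 but beside Pou3f2, where it reached 17.1 and 18.4.

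Across the 4 genes the 50 regions merged, by overlaps of at least 1 bp, into 28. Of these, 8 were shared by the E16 basal ganglia and cortex (1 of them by the bulb too), 15 were in the basal ganglia list alone, 4 in the cortex list alone, and 1 was shared by the basal ganglia and bulb only. Of the 21 cortex regions, 17 overlapped a basal ganglia region, where the whole cortex list has 61.5%. In the other direction 11 of 27 basal ganglia regions overlapped a cortex region, where the whole list has 26.4%. Both bulb regions overlapped the basal ganglia, as did 72.7% of all bulb regions, and 1 of the 2 overlapped the cortex, as did 8.52%. In reverse, 2 of the 27 basal ganglia regions and 1 of the 21 cortex regions overlapped the bulb, where the whole lists have 8.16% and 2.29%. Of the 17 shared cortex regions 14 were at Pou3f3, so these counts describe mainly that locus. Overlap did not always mean a common summit: 6 of 20 overlapping pairs between basal ganglia and cortex had summits within 200 bp, against 55.8% of all 4405 such pairs in the lists. At Pou3f3, single wide regions of one list met several of the other, so shares that include this locus are not like for like with those of the whole lists.

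The window of 50 kb fell into empty stretches. The farthest summit inside it was that of the cortex at Pantr1, 47.2 kb from Pou3f3 (fold enrichment 5.30). The nearest outside it was a basal ganglia summit 88.9 kb from Pou3f2, within Fbxl4 (3.92). The nearest P3 summits were 155.5 kb (cortex) and 261.9 kb (bulb) away, both on the chromosome of Pou3f3. Each had an E16 counterpart: the P3 cortex summit lay 61 bp from one of the E16 basal ganglia (4.10 and 4.81), and the P3 bulb summit 67 bp from one of the E16 bulb (4.30 and 6.55). The share of all P3 regions with such a counterpart was not counted, so whether these matches are unusual is unknown.

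Other POU genes were listed less widely in the cortex than in the basal ganglia. Of 11 genes of the other POU classes, 7 had a summit in the E16 basal ganglia, 2 in the cortex of that age, 1 in its bulb and 0 at P3. The strongest was Pou2f1 (Oct1), a ubiquitous octamer-binding factor gene, with a fold enrichment of 15.4 in the basal ganglia, 5.74 in the cortex and 6.16 in the bulb. Pou2f2 had 8.60 and 8.89 in the basal ganglia and cortex. The sensory neuron genes Pou4f1 and Pou4f2 had 3.68 and 5.14 in the basal ganglia only. Beside the background of 42.4% and 28.7%, these counts do not set the other POU genes apart.

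Of 5 genes for SOX proteins, known partners of POU class 3 proteins, 4 had a summit in both the E16 basal ganglia and the E16 cortex, where 42.4% and 28.7% of all protein-coding genes had one. They are part of a longer list of partners chosen with earlier results of these data known, so this count is a description. Sox1 and Sox2, which encode SOX factors of neural progenitors, had their strongest summits in the gene body in both lists. Those of Sox1 reached 22.2 in the basal ganglia and 28.0 in the cortex, and those of Sox2 22.0 and 13.5. Sox4 and Sox11, SOX genes of young neurons, had 18.0 and 12.4 in the basal ganglia and 18.9 and 23.2 in the cortex. In the E16 bulb Sox1 had 5.37 and Sox4 3.08. Sox3 had no summit in any list. Myt1l, a zinc finger gene of neurons and another known partner, had 13.1 and 8.89 in the E16 basal ganglia and cortex and 3.56 in the P3 cortex, where Sox4 had 4.42.

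Of 4 known targets of POU class 3 proteins, Nes, the nestin gene of neural progenitors, and Dll1, a Notch ligand gene, had summits in both of these E16 lists, a count near the basal ganglia background of 42.4% (28.7% in the cortex). Nes had 4.69 in the basal ganglia and 6.39 in the cortex, at 16.2 and 16.8 kb from the gene. Dll1 had 6.90 and 6.08, both in the gene body. Fabp7, a radial glia gene, was listed in the P3 cortex alone (3.91), and Crh, a neuropeptide gene, in no list. Ubiquitous genes had summits in 7 of 12 cases in the basal ganglia and 6 of 12 in the cortex, beside the same 42.4% and 28.7%, with 18.2 and 27.1 beside Gapdh, a glycolysis gene. Marker genes of other cell types or tissues also met the rule in the basal ganglia list. The counts were 3 of 5 for microglia and 1 of 4 each for endothelial cells, liver (Ttr) and skeletal muscle. In the cortex list these counts were 2, 0, 0 and 1. They stand beside the same background of 42.4% and 28.7%, and their part in the results was not tested.

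The genes whose pattern over the 5 lists was most like that of a member were found by the mean absolute difference of the within-list percentile of the strongest summit. For Pou3f3 they were Phf12 and Sez6, which share their summits, at 1.58 percentile points, and Erlin2 at 1.59. Erlin2, which shares its summits with Zfp703, had a fold enrichment of 20.3, 21.2 and 4.59 in the E16 basal ganglia, cortex and bulb, against 55.7, 63.2 and 4.43 for Pou3f3, since percentiles compress the strongest values. For Pou3f1 they were Gm973 (1.98 points), Cabp1 (3.13) and Msi2 (3.87), an RNA-binding protein gene of neural progenitors. For Pou3f2, 6 genes tied at 0.0805 points, among them Ehbp1l1, Fam89b and Kcnk7, which share a summit, and 1543 genes came within 5 points. For Pou3f4, 97 genes had an identical pattern, so its pattern singled out no gene.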

How the data were processed

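Dlx2 ChIP-seq regions were analysed for 5 libraries of mouse brain. The members and gene lists were chosen with earlier results of these data known. Per the submitters' processing notes, Trimmomatic, Bowtie2, SAMtools and MACS2 were used, with the build mm10. Not given in the sources used here were tool versions, the calling threshold, the control library and the depth. Deposited by the authors was 1 region list per library, each region with its fold enrichment (a ratio over local background), its −log10 q-value and the offset of its summit. Since they are relative to each library, these values were compared by rank inside 1 list, and between lists they stand side by side only.

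Summits, counted from 1, were assigned to RefSeq gene bodies (GRCm38.p6) extended by 50 kb with Python 3.11.15, pandas 2.3.3 and numpy 2.4.6. The interval functions were tested on simulated data. Regions overlapping by at least 1 bp were called shared. The background is the share of all protein-coding genes that met the rule. The design replaced a test by description, since each group has 1 library. Genes named are the 4 members, their annotated neighbours, members of the gene lists with a summit and the 3 genes most alike in pattern, and genes named besides (Gins2, Zfp703, Sox3 and Crh) were chosen after their values were seen. No protein sequences were used here, so the planned protein comparison was not made. One gene of the partner list is not reported here. The promoter table had entries for 3 of the 4 members. Alternatives were windows of 10 and 100 kb, regions of at most 1 kb, a −log10 q of at least 5, the 734 strongest regions per list, and stricter overlaps.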

Additional observations from a re-analysis of the deposited data

How the results depend on the processing

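The counts of 0 at P3 could not change under these alternatives, which mostly remove summits, since the nearest P3 summit lay 155.5 kb away. Without regions wider than 1 kb, the summits at the 4 genes fell from 27 to 15 in the E16 basal ganglia and from 21 to 12 in the E16 cortex. With the 734 regions of highest −log10 q of each list, 2 remained in the basal ganglia (1 each at Pou3f2 and Pou3f3), 6 in the cortex (5 at Pou3f3 and 1 at Pou3f2) and 0 in the E16 bulb. Within 10 kb of the genes there were 9 in the cortex and 1 in the bulb, and the merged regions in 2 or more lists fell from 9 to 5, and those shared by basal ganglia and cortex from 8 to 5. For protein-coding genes of at most 10 kb, the E16 background was 33.8% for basal ganglia, 27.2% for cortex and 3.17% for bulb, and the P3 background 8.5% for cortex and 2.32% for bulb. The smaller windows and shorter lists hold fewer summits by construction. Pou3f3 had the most summits of the 4 genes in the E16 cortex in each of the 5 alternatives, but not in the basal ganglia: there Pou3f2 had more within 10 kb (10 against 7) and without wide regions (7 against 3), and as many in the 734 strongest regions. No paired analysis was possible because each group has 1 library. Unknown depth limits every absence from a list, and the P3 lists most, since they cannot show whether binding at these genes was lost or below the threshold.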
